A study of Mus musculus with 32 samples.

Results

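The effect of the Smim30 knockout in brown fat was set against its effect in heart, gene by gene. The difference between the tissues was taken as (BAT Mut minus BAT WT) minus (Heart Mut minus Heart WT), where BAT is brown adipose tissue. A positive value means that a gene stood higher in Mut relative to WT in BAT than it did in heart. The groups were BAT from Smim30 knockout mice (labelled Mut), BAT from wild-type mice (WT), heart from Mut mice and heart from WT mice. All were taken from male C57BL/6J mice, 4 libraries per group, 16 of the 32 libraries of the study. The labels give neither age, nor the form of the knockout allele, nor whether it is whole-body, and they name no other treatment. The genes compared were those with a mean of at least 1 TPM (a length-corrected transcript level, scaled to the same sum in every library) in both tissues, 11167 of 51510. Genes whose effects had opposite signs in the tissues are described most fully.

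Brown fat burns lipid to make heat, through the uncoupling protein UCP1 in its mitochondria. Heart muscle uses the same fuels to make ATP for contraction. Both tissues are rich in mitochondria and use many of the same genes, so one gene can be read in both. SMIM30 is a small integral membrane protein encoded by a transcript once taken to be noncoding.

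The libraries carried the markers of their tissues. The summed level of 8 brown adipocyte markers was 8516 to 10420 TPM in BAT Mut and 8316 to 9865 TPM in BAT WT, against 800.3 to 1763 TPM in the heart libraries. The summed level of 10 ventricular cardiomyocyte markers was 19275 to 28357 TPM in heart Mut and 29012 to 31349 TPM in heart WT, against 381 to 459 TPM in the BAT libraries. Some libraries stood apart. On the first principal component of BAT (50.4% of the variance), WT libraries 1 and 2 had loadings of 0.63 and 0.53, against -0.36 to 0.01 in the other 6. In heart, Mut library 2 had a loading of 0.78 on the first component. That library held 54.5% of its TPM in mitochondrially encoded genes, against 40.7% to 44.4% in the remaining heart Mut libraries and 41.2% to 43.7% in heart WT. The part these libraries play was tested only by leaving them out.

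Smim30 is annotated as 2610001J05Rik (ENSMUSG00000052419) on chromosome 6, chr6:13867735-13871518 of GRCm38, minus strand. In BAT it read 28.6, 27.3, 29.3 and 33.0 TPM in Mut and 23.5, 26.8, 32.0 and 32.3 TPM in WT. The heart libraries read 23.5, 17.8, 25.8 and 27.4 TPM in Mut and 32.7, 37.6, 33.7 and 34.5 TPM in WT. The genotypes overlapped in BAT and did not overlap in heart, where all Mut libraries were lower. The effects differed by 0.60 on the log2(TPM + 1) scale (SE 0.18). An exact permutation test over 4900 reassignments of genotype within tissues, two-sided, gave p = 0.0147, or 0.0367 after Benjamini-Hochberg adjustment over 5 genes. That test is exact for no genotype effect in either tissue, and not for equal effects in both. Those 5 genes (Smim30, Ide, Btaf1, Rab4a and Ucp1) were chosen with earlier results of these data known, and adjustment over 5 does not cover that choice. Over all genes the limma adjusted p was 0.0802, which missed the threshold of 0.05. The difference was 0.43 without BAT WT 1 and 2 (adjusted p = 0.251) and 0.30 without these and heart Mut 2 (adjusted p = 0.2535). Smim30 RNA was present in every library labelled Mut, so the RNA does not by itself check the labels.

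Ide, which encodes the insulin degrading enzyme (chr19:37268743-37337852), separated the genotypes in heart and not in BAT. It read 23.3, 42.8, 47.0 and 43.2 TPM in BAT Mut and 20.8, 22.5, 39.8 and 38.2 TPM in BAT WT, with Mut library 1 and WT libraries 1 and 2 low. It read 16.8, 17.7, 17.7 and 17.0 TPM in heart Mut and 28.1, 38.9, 35.7 and 39.9 TPM in heart WT. Ide was also lower in every Mut library of liver (24.9 to 27.9 TPM, against 37.8 to 40.7 TPM in WT) and of skeletal muscle (45.1 to 55.5 TPM, against 84.6 to 96.2 TPM in WT). Its tissue difference was 1.36 (SE 0.30), with an exact permutation p = 0.00490, or 0.0245 adjusted over the 5 genes. The limma adjusted p over all genes was 0.0556, which missed the threshold. Adjustment over the 5 does not cover how they were chosen. Without BAT WT 1 and 2 the difference was 0.95 (limma adjusted p = 0.148). Btaf1, a neighbouring gene on chromosome 19 whose product acts on the TATA-binding protein, also separated the genotypes in heart and not in BAT. It read 3.82, 5.01, 4.81 and 4.99 TPM in BAT Mut and 3.16, 2.93, 5.87 and 6.18 TPM in BAT WT. Heart levels were 2.12, 2.07, 2.08 and 2.26 TPM in Mut and 3.28, 3.37, 3.39 and 3.26 TPM in WT (tissue difference 0.55, exact permutation p = 0.0543, limma adjusted p = 0.144), and without BAT WT 1 and 2 the difference was 0.15 (adjusted p = 0.547). Btaf1 was lower in every Mut library of skeletal muscle (2.50 to 3.51 TPM, against 4.90 to 5.74 TPM in WT), but the genotypes overlapped in liver (4.00 to 5.29 TPM in Mut and 4.37 to 5.50 TPM in WT). In BAT the low libraries of both genes were thus WT 1, WT 2 and Mut 1. What sets those 3 libraries apart was not tested, and they enter every BAT value below. Whether a BAT library carries another library's label was not tested either, and an exchanged label would change what each Mut minus WT difference in BAT means. Rab4a, a GTPase that returns endocytosed cargo to the surface, separated the genotypes in BAT as labelled only by a narrow gap. Its lowest BAT Mut library (3.903 TPM) lay just above its highest BAT WT library (3.889 TPM). With median-ratio scaling the genotypes overlapped in BAT. The BAT effect did not pass (limma adjusted p = 0.0667), and the heart effect did (0.0381). On TPM, Rab4a read 3.90 to 5.59 TPM in Mut and 2.32 to 3.89 TPM in WT in BAT. In heart it read 5.23 to 6.53 TPM in Mut and 2.50 to 3.74 TPM in WT. Its tissue difference was -0.28 (exact permutation p = 0.464, limma unadjusted p = 0.144, limma adjusted p = 0.330 over all genes). Ucp1 read 2732 to 3170.2 TPM in BAT Mut and 2444 to 3565 TPM in BAT WT, and its tissue difference was 0.05 (SE 0.15, exact permutation p = 0.749).

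**Figure D1:**
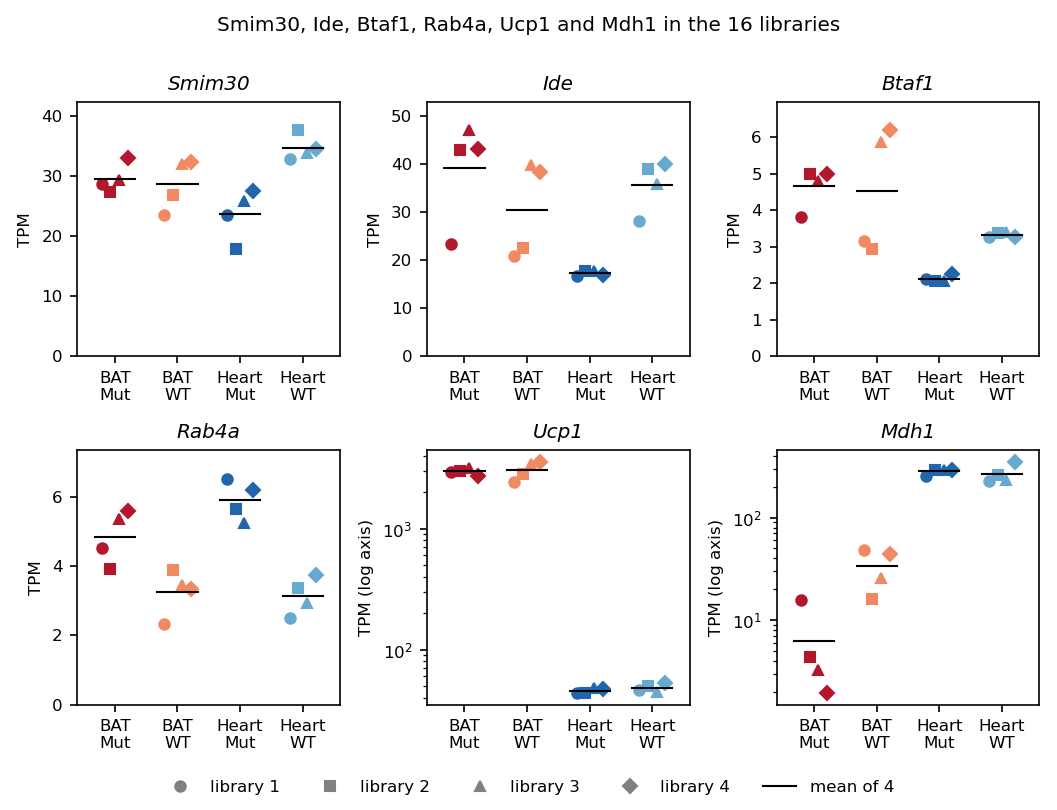
TPM of Smim30, Ide, Btaf1, Rab4a, Ucp1 and Mdh1 in each BAT and heart library, Mut beside WT, with the number of a library shown by its marker and the group mean by a line (log axes for Ucp1 and Mdh1). Ide and Btaf1 split by genotype in heart, and in BAT their lowest libraries are WT 1, WT 2 and Mut 1.

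Over all genes, the tissue difference passed an adjusted p under 0.05 (limma with a mean-variance trend, Benjamini-Hochberg) for 29 of 11167 genes (0.26%). All 29 were positive, and 0 were negative. At an unadjusted p under 0.05 there were 2839 positive genes (25.4%) and 98 negative ones (0.878%). Of the 29, 28 stood higher in Mut in BAT and lower in Mut in heart (0.251% of all genes). The exception was Nppa, with both effects below 0. Taken tissue by tissue in the same fit, 17 of the 29 also passed in BAT and 5 in heart, and 0 in both. In BAT 213 genes passed as higher in Mut (1.91%) and 23 as lower (0.206%), and in heart 1 passed as higher (0.00895%) and 9 as lower (0.0806%). Among the 29, the Mut and WT libraries did not overlap in BAT for 22, in heart for 15 and in both tissues for 8. Over all genes, 78 did not overlap in both tissues with BAT higher and heart lower (0.698%). The share over all genes was not counted for BAT or heart alone. The 29 were picked by a test on these same values, so their lack of overlap adds no separate evidence. Another 132 genes had an adjusted p between 0.05 and 0.06, so the number of genes past the threshold is not sharp. In these whole tissues a difference in RNA per cell and a difference in the share of a cell type cannot be told apart.

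The direction of these counts depended on the scaling. On TPM as deposited the median gene had a log2 difference of 0.09 in BAT and -0.11 in heart, a tissue difference of 0.21. With median-ratio scaling, which sets the typical gene of each library to the same level, these medians were -0.02, 0.00 and -0.02. The share of genes higher in Mut in BAT and lower in Mut in heart was 60.3% on TPM and 23.6% with median-ratio scaling. The share with the opposite pattern was 5.83% on TPM and 30.5% with median-ratio scaling. The test then passed for 99 positive genes (0.887%) and 187 negative ones (1.67%), and 27 of the 29 genes were among the positive ones. Of the 286, 94 were higher in Mut in BAT and lower in heart (0.842%), and 178 were lower in BAT and higher in heart (1.59%). After rescaling each library without mitochondrial genes and the 10 most abundant others, it passed for 70 positive (0.629%) and 79 negative genes (0.71%). On TPM as deposited, negative genes also passed under some other settings: 68 of 1665 with array weights, 21 of 737 with a block for the mouse, 14 of 876 in a fit over 32 libraries, 18 of 1086 without BAT WT 3, 6 of 408 without heart Mut 3, 2 of 14 without heart Mut 1, 1 of 6 without BAT Mut 1, 2 of 11 with no filter and 25 of 985 at an adjusted p under 0.1.

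**Figure D2:**
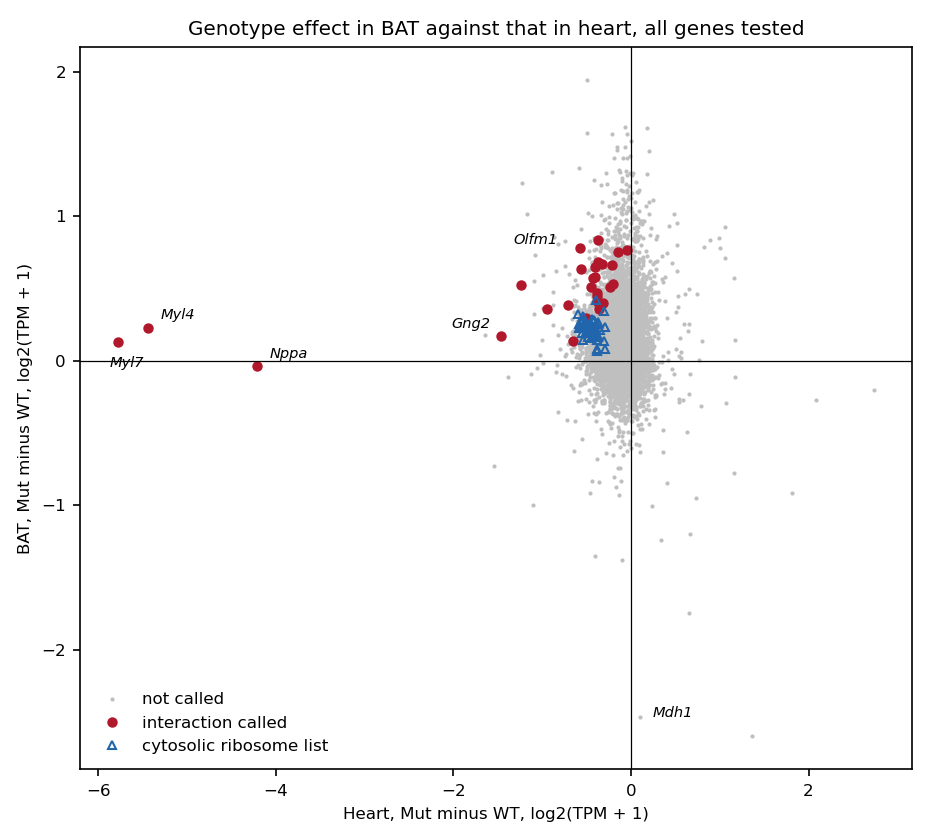
Mut minus WT difference in BAT (vertical) against that in heart (horizontal), both on the log2(TPM + 1) scale, for the 11167 genes. Red points are the 29 genes whose tissue difference passed the test, 28 of them at the upper left, and blue triangles are the 48 cytosolic ribosomal protein genes, which also lie there.

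Among the 8 genes that passed the test and whose libraries did not overlap in either tissue, Plscr2 had the smallest adjusted p apart from the atrial genes. It encodes a phospholipid scramblase, a protein that moves lipids between the leaflets of a membrane (chr9:92275602-92297752). It read 3.69, 3.41, 3.90 and 3.85 TPM in BAT Mut and 2.08, 1.99, 2.64 and 2.03 TPM in BAT WT. Its heart values were 17.4, 14.0, 15.9 and 13.7 TPM in Mut and 18.2, 22.4, 21.2 and 21.5 TPM in WT. Each Mut library was above every WT library in BAT and below every WT library in heart. The log2 difference was 0.57 in BAT, where it rose (adjusted p = 0.0173), and -0.43 in heart (adjusted p = 0.121), a tissue difference of 1.00 (SE 0.14, limma adjusted p = 0.00441). With median-ratio scaling it was 0.76, with the same signs.

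Rbm3 encodes an RNA-binding protein known for its induction by cold (chrX:8138975-8145880). It read 104, 87.9, 105 and 104 TPM in BAT Mut and 59.1, 71.8, 86.5 and 73.4 TPM in BAT WT. In heart it read 55.1, 43.0, 54.9 and 51.9 TPM in Mut and 58.5, 71.4, 67.4 and 71.3 TPM in WT. The lowest Mut library of BAT lay just above the highest WT library. Its tissue difference was 0.85 (SE 0.16, limma adjusted p = 0.0487).

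Tpt1 encodes the translationally controlled tumour protein, whose mRNA belongs to the growth-regulated class that also holds the ribosomal protein mRNAs (chr14:75845093-75848525). It was the most abundant of the 8, at 827, 786, 814 and 899 TPM in BAT Mut and 666, 492, 632 and 658 TPM in BAT WT. The heart libraries read 697, 561, 715 and 679.9 TPM in Mut and 859, 912, 842 and 837 TPM in WT. The Mut libraries lay above all WT libraries in BAT and below all of them in heart. Its tissue difference was 0.84 (SE 0.15, limma adjusted p = 0.0352), with a rise in BAT (0.45, adjusted p = 0.0350) and a log2 difference of -0.38 in heart (adjusted p = 0.172).

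Il11ra1 encodes the receptor chain that binds interleukin 11, a cytokine of fibroblast activation (chr4:41699989-41769474). It read 24.1, 29.9, 23.9 and 32.5 TPM in BAT Mut and 19.2, 20.4, 21.3 and 21.6 TPM in BAT WT. Heart levels were 32.4, 26.1, 35.6 and 30.8 TPM in Mut and 37.8, 40.4, 39.2 and 43.9 TPM in WT. The tissue difference was 0.76 (SE 0.15, limma adjusted p = 0.0495), close to the threshold. Neither tissue passed alone (limma adjusted p = 0.0644 in BAT and 0.187 in heart). Dpysl2, a tubulin-binding protein known from axon growth, read 4.94, 5.23, 5.29 and 5.62 TPM in BAT Mut and 3.21, 3.81, 4.77 and 3.87 TPM in BAT WT. Its heart values were 3.12, 2.50, 3.40 and 3.17 TPM in Mut and 4.34, 4.21, 3.67 and 4.61 TPM in WT (tissue difference 0.73, SE 0.14, adjusted p = 0.0487). Dpysl2 also passed in neither tissue alone (limma adjusted p = 0.0681 in BAT and 0.172 in heart).

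Myom1 encodes myomesin, which crosslinks the thick filaments of striated muscle in the M band (chr17:71002633-71126856). It read 16.6, 18.4, 15.8 and 14.5 TPM in BAT Mut and 12.0, 12.2, 12.4 and 11.8 TPM in BAT WT, and 269.6, 193, 243 and 252 TPM in heart Mut and 279, 319, 297 and 295 TPM in heart WT. The tissue difference was 0.72 (SE 0.14, adjusted p = 0.0487), and 0.46 with median-ratio scaling, which did not pass (adjusted p = 0.0675). All 12 skeletal muscle fibre markers also had a higher mean in Mut in BAT, as did 72.9% of all genes. Their summed level was 1508 to 3825 TPM in BAT Mut and 1672 to 1825 TPM in BAT WT. Mut library 4 lay below every WT library in that sum, but above every WT library for Myom1. The part of these markers in the Myom1 difference was not tested.

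Smim1, another small integral membrane protein, known for the Vel blood group antigen in humans, read 3.53, 3.53, 3.14 and 3.70 TPM in BAT Mut and 1.47, 3.11, 3.05 and 2.57 TPM in BAT WT. In heart it read 1.13, 0.720, 2.23 and 1.39 TPM in Mut and 3.54, 3.01, 2.72 and 4.77 TPM in WT. The gap in BAT was narrow, and the larger log2 difference was that in heart (-0.95, against 0.36 in BAT). The tissue difference was 1.31 (SE 0.26, adjusted p = 0.0487). Smim1 passed in neither tissue alone (limma adjusted p = 0.309 in BAT and 0.0539 in heart).

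**Figure D3:**
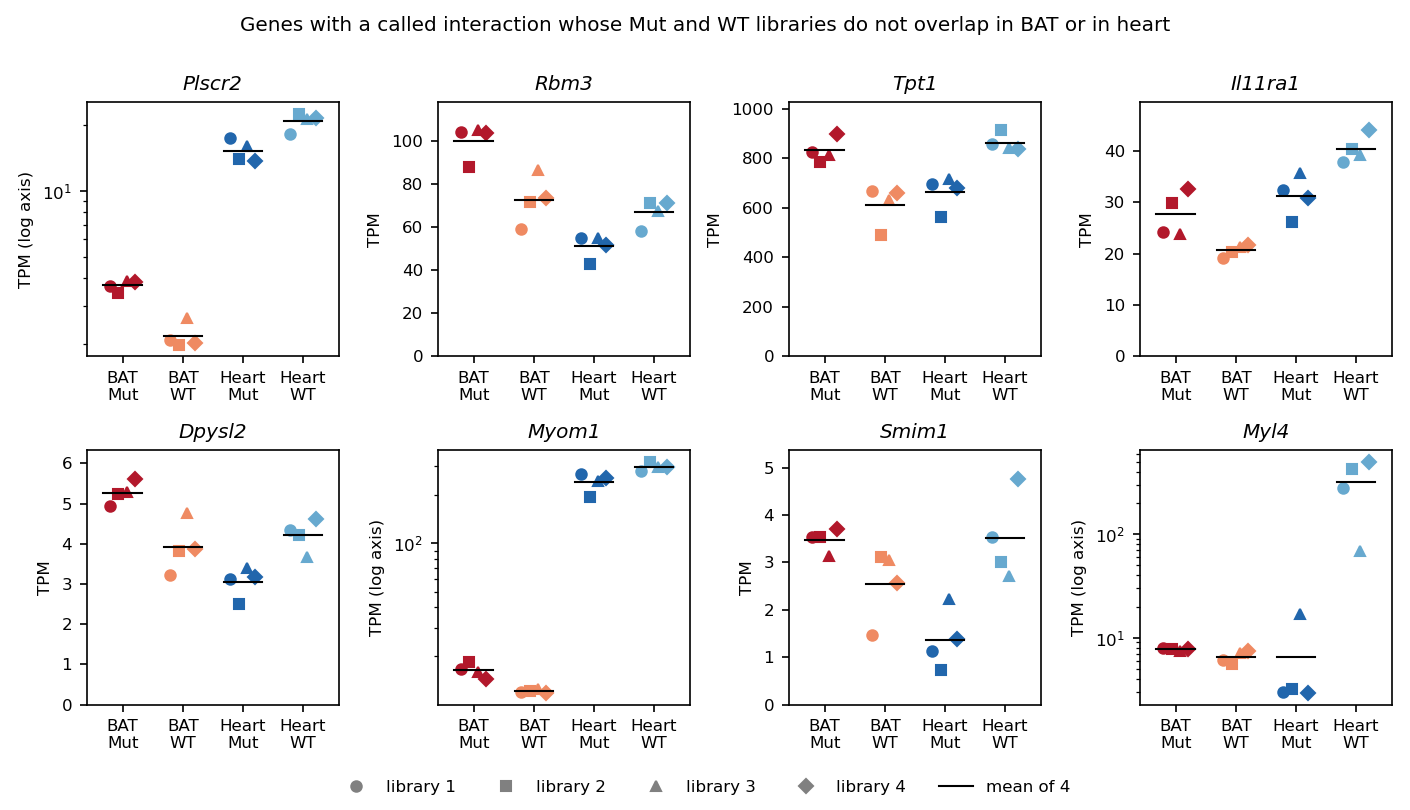
TPM of the 8 genes that passed the test and whose Mut and WT libraries did not overlap in BAT or in heart. Values are by group and library, with the group mean as a line (log axes for Plscr2, Myom1 and Myl4). In each panel the BAT Mut points lie above the BAT WT points, and the heart Mut points lie below the heart WT points.

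The largest tissue differences were those of atrial muscle genes, and the genotypes differed mainly in heart. Myl7, a regulatory light chain of myosin used in atria, read 2.58 to 3.17 TPM in BAT Mut and 1.90 to 3.14 TPM in BAT WT, which overlapped. It read 2.64, 3.76, 20.6 and 2.74 TPM in heart Mut and 371, 555, 96.8 and 626 TPM in heart WT. Myl4, the atrial essential light chain and the last of the 8 genes, read 8.01, 7.74, 7.48 and 7.80 TPM in BAT Mut and 6.03, 5.52, 7.14 and 7.37 TPM in BAT WT, with Mut just above WT. It read 2.95, 3.18, 17.1 and 2.92 TPM in heart Mut and 278, 423, 68.8 and 501 TPM in heart WT. Both fell in heart (log2 differences -5.78 and -5.44, both with adjusted p = 2.57e-05). The tissue differences were 5.91 for Myl7 (SE 0.74) and 5.67 for Myl4 (SE 0.71), both with limma adjusted p = 0.00211. The log2 differences in BAT were only 0.13 and 0.23 (adjusted p = 0.927 and 0.862), so the opposed signs of this pair rest on BAT values that did not pass. Nppa, the precursor of atrial natriuretic peptide, read 6.80 to 7.60 TPM in BAT Mut and 6.39 to 8.50 TPM in BAT WT. It read 68.0, 14.6, 47.2 and 46.0 TPM in heart Mut and 763, 1288, 143 and 2049 TPM in heart WT, and fell there (adjusted p = 0.00372; tissue difference 4.18, adjusted p = 0.0487). Of 10 atrial markers 4 reached 1 TPM in both tissues, and their summed level over all 10 was 29.9 to 102 TPM in heart Mut and 346 to 3486 TPM in heart WT. Heart Mut library 3 and heart WT library 3 lay closest to each other.

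Gng2, a G protein gamma subunit, had the next largest difference among the genes that passed (1.63, SE 0.32, adjusted p = 0.0487). It read 3.39, 1.97, 5.57 and 4.55 TPM in BAT Mut and 2.47, 2.54, 5.19 and 2.90 TPM in BAT WT, which overlapped. It read 1.28, 0.795, 1.26 and 1.07 TPM in heart Mut and 4.33, 4.13, 3.84 and 7.29 TPM in heart WT, and fell there (adjusted p = 0.0146). The reverse held for Olfm1 and Hmgn3, where BAT carried the larger part. Olfm1, a secreted olfactomedin, read 8.99, 7.31, 7.59 and 9.58 TPM in BAT Mut and 2.99, 4.20, 5.99 and 5.01 TPM in BAT WT. The heart libraries read 2.16, 1.57, 2.46 and 1.41 TPM in Mut and 3.41, 3.38, 2.43 and 4.09 TPM in WT; Mut library 3 overlapped WT library 3 (tissue difference 1.36, SE 0.23, adjusted p = 0.0320). Hmgn3, a nucleosome-binding protein, read 8.64, 7.13, 8.34 and 10.0 TPM in BAT Mut and 3.12, 4.69, 5.14 and 4.56 TPM in BAT WT. Heart levels were 4.27 to 7.38 TPM in Mut and 6.78 to 8.77 TPM in WT (tissue difference 1.20, SE 0.21, adjusted p = 0.0320). Both rose in BAT (log2 differences 0.78 and 0.83, adjusted p = 0.0265 and 0.0202).

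The other genes that passed were named after their values were seen, and 2 more have provisional names and are only counted. Rab3a, a small GTPase of regulated secretion, read 12.7, 11.9, 12.1 and 11.8 TPM in BAT Mut and 8.21, 8.92, 10.1 and 8.31 TPM in BAT WT, and 16.3 to 25.6 TPM in heart Mut and 24.7 to 29.0 TPM in heart WT (tissue difference 0.79). It was 1 of 25 Rab genes tested, and no other Rab gene passed. The rest are given by what their proteins do. Mmp2 (a matrix metalloprotease), Ccl11 (the chemokine eotaxin) and Galnt15 (a glycosyltransferase) had tissue differences of 0.87, 0.99 and 0.90, and all 3 rose in BAT. Gpx7 (a peroxidase of the endoplasmic reticulum), Rtn2 (a reticulon of the endoplasmic reticulum), Atp6v0e2 (a proton pump subunit) and Cpne2 (a copine) had differences of 0.99, 1.06, 0.96 and 0.81. Rhoj (a small GTPase of endothelium) and Tfpi (the tissue factor pathway inhibitor, made by endothelium) had differences of 0.74 and 0.80. Bex3 and Tceal8, related genes on the X chromosome, had differences of 1.19 and 1.09, and Tle6 (of the Groucho family of corepressors) and Tmpo (a lamin-binding protein of the nucleus) had differences of 1.06 and 0.74. Tfpi and Tceal8 overlapped in BAT and separated the genotypes in heart, with Tfpi at 14.3 to 18.8 TPM in heart Mut and 20.2 to 26.2 TPM in heart WT.

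How firmly these genes passed differed. When each of the 16 libraries was left out in turn, 3 genes passed every time: Myl7, Myl4 and Plscr2. With a block for the replicate number none of these 3 passed (limma adjusted p = 0.0576, 0.0576 and 0.0623). That block sets Mut and WT libraries of the same number within a tissue together, which the labels do not state. It also leaves fewer values to estimate the spread from. Such libraries correlated at -0.25 to 0.05, with 0 of 8 over 0.1. The count of genes that passed was between 3 and 1086, with 3 when any 1 of BAT WT 2, BAT WT 4, BAT Mut 4, heart WT 2, heart WT 4 or heart Mut 4 was left out, 4 without BAT WT 1, 5 without BAT Mut 3, 6 without BAT Mut 1, 8 without BAT Mut 2, 14 without heart Mut 1, 408 without heart Mut 3 and 1086 without BAT WT 3. Without BAT WT 1 and 2 together, an alternative added after the data were seen, 4 genes passed. They included Myl7, Myl4 and Plscr2. Without those 2 libraries and heart Mut 2, 2 genes passed, 1 of them Tpt1. The other gene in both counts was 1 of 2 overlapping annotated entries of Nnt, the mitochondrial transhydrogenase. Its tissue difference was positive in both (limma adjusted p = 0.00149 and 0.00567). Reads can be split between such entries, and whether they were was not tested.

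No gene passed in the other direction on TPM in the limma fit to these 16 libraries (98 did at an unadjusted p under 0.05; other settings are given above), and the genes named here were chosen after their values were seen, by the smallest p among those lower in Mut in BAT and higher in Mut in heart. Mdh1, the cytosolic malate dehydrogenase of the malate-aspartate shuttle, had the largest difference. It read 15.7, 4.35, 3.25 and 1.95 TPM in BAT Mut and 48.7, 16.1, 25.7 and 44.4 TPM in BAT WT and the lowest WT library lay just above the highest Mut library. Its heart values were 255, 293, 294 and 289 TPM in Mut and 226, 262, 231 and 349.5 TPM in WT, which overlapped. Mdh1 fell in BAT (-2.46, adjusted p = 0.0125), and its tissue difference was -2.56 (SE 0.56, adjusted p = 0.0556). Any related pseudogene may share reads with it. Coa5, an assembly factor of cytochrome c oxidase, read 76.7, 71.6, 79.2 and 80.5 TPM in BAT Mut and 86.7, 93.4, 99.4 and 94.9 TPM in BAT WT. In heart it read 45.1, 46.5, 54.2 and 52.4 TPM in Mut and 42.8, 45.6, 43.2 and 44.6 TPM in WT, where WT library 2 lay above Mut library 1 (tissue difference -0.44, adjusted p = 0.0629). Opa1, the dynamin that fuses mitochondrial inner membranes, read 40.0, 34.7, 38.3 and 35.8 TPM in BAT Mut and 44.9, 43.3, 50.3 and 51.8 TPM in BAT WT. The heart libraries read 31.7 to 43.4 TPM in Mut and 32.6 to 35.3 TPM in WT (tissue difference -0.48, adjusted p = 0.0787). Parm1, Palm2 and Egln3, an oxygen-sensing prolyl hydroxylase, had differences of -0.63, -1.68 and -0.81 (adjusted p = 0.0773, 0.0599 and 0.0804). With median-ratio scaling all 6 passed, with tissue differences between -2.78 for Mdh1 and -0.70 for Coa5.

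Over all genes, Mut and WT did not overlap in either tissue, with BAT higher and heart lower, for 78 genes (0.698%). Of these, 19 had symbols starting Rpl or Rps and a digit, as did 98 of all genes tested. The 48 cytosolic ribosomal protein genes described below held 11 of them. BAT lower and heart higher without overlap was shown by 0 genes. Higher in Mut in both tissues was shown by 5 (0.0448%) and lower in both by 7 (0.0627%). With median-ratio scaling the counts were 33 for BAT higher and heart lower (0.296%) and 67 for BAT lower and heart higher (0.6%). Of the 78 genes, 15 stayed without overlap in both tissues at that scaling. Among the 8 genes described above, Rbm3, Il11ra1 and Dpysl2 stayed so. Plscr2 and Tpt1 then overlapped in heart, Smim1 and Myl4 in BAT, and Myom1 in both tissues.

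Cytosolic ribosomal protein genes encode the proteins of the cytosolic ribosome and are known for being expressed together. All 48 tested genes of the list stood higher in Mut in BAT and lower in Mut in heart, as did 60.3% of all genes. The tissue difference had a median of 0.67, against 0.21 over all genes, with list medians of 0.22 in BAT and -0.44 in heart. None passed over all genes (0.26% did), and 46 of 48 were positive at an unadjusted p under 0.05 (25.4% of all genes were). With median-ratio scaling 5 passed, all positive (0.887% of all genes passed as positive at that scaling). Rps7, a small subunit protein, read 181, 177, 192 and 192 TPM in BAT Mut and 149.5, 155, 171 and 159.6 TPM in BAT WT, and 153, 105, 157 and 147 TPM in heart Mut and 179, 193, 171 and 189 TPM in heart WT, with no overlap in either tissue (tissue difference 0.62, adjusted p = 0.0599). Heart Mut library 2 was the lowest library. Its mean over the list was 1.03 below the heart WT mean on the log2 scale (a difference of -1.03), against -0.34, -0.21 and -0.22 in heart Mut 1, 3 and 4 and -0.11 to 0.09 in heart WT. In BAT the same means were 0.17, 0.14, 0.20 and 0.37 in Mut and -0.14, -0.01, 0.14 and 0.01 in WT. The Mut values lay below all WT values in heart, and in BAT Mut library 2 and WT library 3 overlapped. The median tissue difference was 0.48 without heart Mut 2, 0.58 without BAT WT 1 and 2, and 0.40 with median-ratio scaling, where list medians stayed above 0 in BAT and below 0 in heart.

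The sequences around the starts of 4 of these genes are shown because ribosomal protein mRNAs are known for a run of pyrimidines at their start. Each sequence runs from 35 bases before to 20 bases after the RefSeq start (GRCm38.p6), on the gene's strand, with the letters CTCTTT in capitals. The capitals stand at or just after the start in Rpl28 and Rpl18, span it in Rps9, and lie wholly before it in Rps7, outside the annotated mRNA.
Rps7 at chr12:28635934-28635988, minus strand: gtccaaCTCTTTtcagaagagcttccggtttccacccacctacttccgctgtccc
Rps9 at chr7:3704006-3704060, plus strand: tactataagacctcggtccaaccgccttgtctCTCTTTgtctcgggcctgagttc
Rpl28 at chr7:4792930-4792984, plus strand: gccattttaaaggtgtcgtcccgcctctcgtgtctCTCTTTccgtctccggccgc
Rpl18 at chr7:45718036-45718090, plus strand: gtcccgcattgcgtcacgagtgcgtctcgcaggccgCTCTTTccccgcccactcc
CTCTTT was 1 of 7 letter strings looked at, chosen after seeing the sequences, and it overlaps other strings of that set. Within 50 bases of the start it stood on the gene's strand in 10 of the 35 list promoters found in the RefSeq table (28.6%), against 3.91% of all promoters. On the other strand it stood in 0 of 35, against 3.71% of all promoters. Among 21 promoters of genes that passed the test, 1 held it on the gene's strand. These are letter matches and describe no factor. The tissue differences of the 4 genes were 0.62 (Rps7), 0.69 (Rps9), 0.45 (Rpl28) and 0.66 (Rpl18), with adjusted p between 0.0599 and 0.226, and they were not tested against each other.

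Nuclear genes of the respiratory chain lay near 0 in BAT and below 0 in heart. Over all genes the medians were 0.09 in BAT and -0.11 in heart, with a tissue difference of 0.21. The tissue difference of complexes II and III lay below that of all genes. The tissue difference had a median of 0.44 for complex V (15 genes; 0.02 in BAT, -0.35 in heart), 0.41 for complex IV (14 genes; 0.01 in BAT, -0.36 in heart), 0.31 for complex I (36 genes; -0.02 in BAT, -0.32 in heart) and 0.18 for complexes II and III (14 genes; -0.05 in BAT, -0.23 in heart). No gene passed, and 9 of 15, 5 of 14, 6 of 36 and 0 of 14 were positive at an unadjusted p under 0.05 (25.4% of all genes were). Cox7a2, a cytochrome c oxidase subunit, read 625, 722, 727 and 762 TPM in BAT Mut and 697, 769, 669 and 619 TPM in BAT WT, which overlapped. Its heart values were 373, 219.8, 382 and 378 TPM in Mut and 474, 529.6, 487 and 472 TPM in WT, with no overlap (tissue difference 0.61, adjusted p = 0.0982). Atp5g1, which encodes the c subunit of ATP synthase, read 68.8, 64.0, 54.9 and 50.4 TPM in BAT Mut and 39.6, 47.5, 51.1 and 46.1 TPM in BAT WT. In heart it read 1421, 811, 1510.0 and 1630.4 TPM in Mut and 1652, 1737, 1690.2 and 1561 TPM in WT (tissue difference 0.71, adjusted p = 0.0986). Heart Mut library 2 was again the lowest for both genes. Without it the medians were 0.26 (complex V), 0.17 (complex IV), 0.13 (complex I) and 0.11 (complexes II and III). With median-ratio scaling they were 0.18, 0.15, 0.04 and -0.09, where the BAT and heart medians of all 4 lay below 0.

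The 13 mitochondrial mRNAs, which are transcribed from the mitochondrial genome, went the other way: 8 stood lower in Mut in BAT and higher in Mut in heart (5.83% of all genes did), with a median tissue difference of -0.13 (-0.03 in BAT, 0.10 in heart). None passed. The largest negative value was that of mt-Atp8, an ATP synthase subunit, at 65973, 63782, 57421 and 57505 TPM in BAT Mut and 75328, 64159.7, 69453 and 79116 TPM in BAT WT. The heart libraries read 79740.4, 112990, 84059.6 and 82767 TPM in Mut and 75758, 68919, 76227 and 72138 TPM in WT (tissue difference -0.52, adjusted p = 0.0984). It separated the genotypes in heart and not in BAT. Heart Mut library 2, the highest, moved opposite to its ribosomal protein and nuclear respiratory genes. Without it the median of the 13 was -0.01, and with median-ratio scaling it was -0.40.

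**Figure D4:**
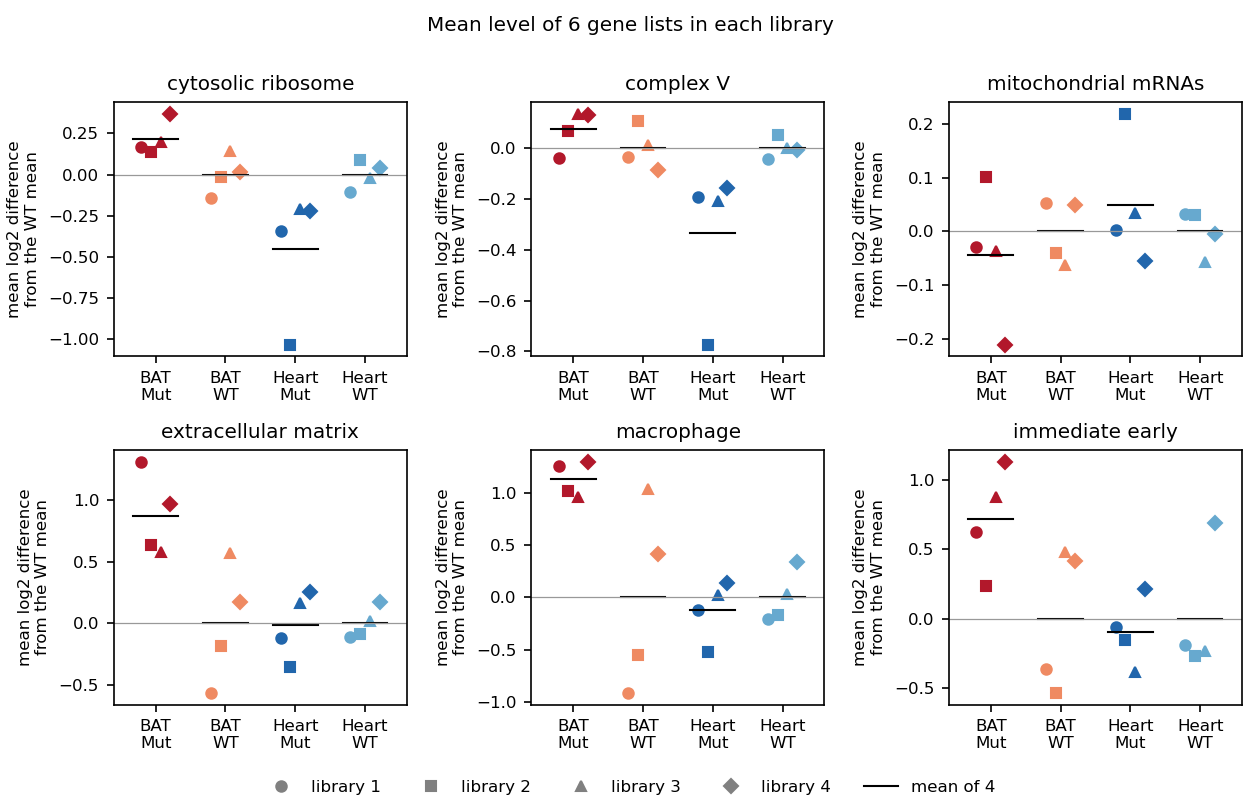
Mean log2 difference of 6 gene lists from the WT mean of the tissue, in each library, by group. Heart Mut 2 stands apart for the ribosomal, complex V and mitochondrial lists, and BAT WT 1 and 2 lie low for the macrophage and immediate early lists.

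Genes of connective tissue and macrophages had larger tissue differences than these lists, with most of the difference in BAT. Extracellular matrix genes had a median of 0.93 (19 genes; 0.90 in BAT, -0.01 in heart), and 14 were positive at an unadjusted p under 0.05 (25.4% of all genes were). None of the list passed. Col3a1, a fibrillar collagen, read 256, 119, 137 and 164 TPM in BAT Mut and 35.4, 54.3, 103 and 65.8 TPM in BAT WT, and rose there (1.41, adjusted p = 0.0253). Heart levels were 25.0, 18.0, 34.9 and 38.6 TPM in Mut and 29.9, 26.4, 29.4 and 27.0 TPM in WT, with overlap (tissue difference 1.42, SE 0.40, adjusted p = 0.0722). Fibroblast markers had a median of 0.82 (8 genes), and 7 of the 8 stood higher in Mut in BAT and lower in Mut in heart, as did 60.3% of all genes. With median-ratio scaling 2 of the 8 did (23.6% of all genes), with list medians of 0.71 in BAT and 0.05 in heart. Dpt, which encodes dermatopontin, read 160.0, 80.8, 75.4 and 156 TPM in BAT Mut and 39.9, 56.8, 62.1 and 65.7 TPM in BAT WT, and 41.6, 33.7, 62.0 and 43.1 TPM in heart Mut and 51.9, 53.5, 65.4 and 71.2 TPM in heart WT (tissue difference 1.44, adjusted p = 0.0563). The summed level of the fibroblast markers was 287 to 507 TPM in BAT Mut and 159.7 to 245 TPM in BAT WT, with no overlap, and 369 to 545 TPM in heart Mut and 449 to 621 TPM in heart WT.

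Macrophage markers had the largest median of any list with at least 5 genes, 1.25 (10 genes; 1.20 in BAT, -0.09 in heart). All 10 stood higher in Mut in BAT and lower in heart (60.3% of all genes did) and were positive at an unadjusted p under 0.05 (25.4% of all genes were), and none passed over all genes. With median-ratio scaling 4 of the 10 had those signs (23.6% of all genes), with list medians of 1.08 in BAT and 0.03 in heart. C1qc, a chain of the complement component C1q, read 48.7, 43.4, 42.7 and 56.2 TPM in BAT Mut and 9.24, 13.2, 41.1 and 27.8 TPM in BAT WT. Its heart values were 20.7, 13.4, 21.6 and 23.3 TPM in Mut and 19.0, 18.5, 21.6 and 25.3 TPM in WT (tissue difference 1.35, SE 0.44, adjusted p = 0.0942). The BAT WT libraries spread over more than the gap between genotypes, with WT 1 and 2 low and WT 3 near the Mut level. The summed macrophage level showed the same, at 403 to 522 TPM in BAT Mut and 81.5, 124, 413 and 255 TPM in BAT WT. Without BAT WT 1 and 2 the median tissue difference was 0.53 for macrophage markers, 0.50 for matrix genes and 0.65 for fibroblast markers. Lymphocyte markers moved with them (summed level 62.6 to 84.7 TPM in BAT Mut and 12.4 to 53.0 TPM in BAT WT), as did white adipocyte markers (295 to 525 TPM in BAT Mut and 151 to 267 TPM in BAT WT). The part of these cell types in the other BAT differences was not tested.

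Immediate early genes, which respond within minutes to growth signals and stress, had a median tissue difference of 0.85 (18 genes; 0.76 in BAT, -0.07 in heart), with 8 positive at an unadjusted p under 0.05 (25.4% of all genes were). All 18 stood higher in Mut in BAT, as did 72.9% of all genes. Jun, a subunit of the AP-1 transcription factor, read 91.2, 68.6, 105 and 146 TPM in BAT Mut and 43.9, 36.4, 72.9 and 61.0 TPM in BAT WT, and 11.6 to 15.8 TPM in heart Mut and 12.6 to 19.3 TPM in heart WT (tissue difference 0.98, adjusted p = 0.0887). Ccn1, a matricellular protein, read 115, 97.8, 144 and 167 TPM in BAT Mut and 25.5, 28.0, 85.5 and 73.5 TPM in BAT WT, and 18.4 to 26.5 TPM in heart Mut and 14.4 to 21.2 TPM in heart WT (tissue difference 1.25, adjusted p = 0.101). Both rose in BAT (adjusted p = 0.0374 and 0.0253), with WT 1 and 2 lowest. Without these 2 libraries the list median was 0.45, and the tissue differences were 0.62 for Jun and 0.49 for Ccn1 (adjusted p = 0.293 and 0.330). Genes of the integrated stress response, the programme of the transcription factor ATF4, had a median of 0.53 (13 genes), and 0.26 without BAT WT 1 and 2. Of the 13, 11 stood higher in Mut in BAT and lower in heart (60.3% of all genes did), and 6 did with median-ratio scaling (23.6% of all genes). Chac1, a glutathione-degrading enzyme of that programme, read 4.52, 4.64, 3.17 and 3.88 TPM in BAT Mut and 1.69, 1.72, 2.97 and 2.74 TPM in BAT WT, and 1.81 to 1.99 TPM in heart Mut and 1.83 to 2.34 TPM in heart WT (tissue difference 0.72, adjusted p = 0.0626). Phgdh, the first enzyme of serine synthesis, had a difference of 0.55 (adjusted p = 0.0745).

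Metabolic genes of brown fat had tissue differences near or below 0. The medians were -0.07 for thermogenesis (18 genes), -0.01 for lipid synthesis (19 genes), -0.02 for the TCA cycle (20 genes) and 0.02 for fatty acid oxidation (19 genes), against 0.21 over all genes. With median-ratio scaling they were -0.30, -0.27, -0.28 and -0.24, and 4, 2, 3 and 5 of these genes passed, all negative (1.67% of all genes passed as negative at that scaling). Acaca, which makes malonyl-CoA for fatty acid synthesis, read 55.4, 50.4, 67.7 and 64.2 TPM in BAT Mut and 93.9, 149, 108 and 92.4 TPM in BAT WT, and 2.63 to 2.99 TPM in heart Mut and 2.79 to 3.62 TPM in heart WT. Elovl6, a fatty acid elongase, read 29.5, 29.0, 31.0 and 28.4 TPM in BAT Mut and 55.9, 75.7, 47.9 and 40.0 TPM in BAT WT, and 0.987 to 1.10 TPM in heart Mut and 1.10 to 1.32 TPM in heart WT. Gpd2, the mitochondrial glycerol-3-phosphate dehydrogenase, read 107, 95.4, 117 and 94.6 TPM in BAT Mut and 151, 158, 160.1 and 158 TPM in BAT WT, and 4.16 to 4.73 TPM in heart Mut and 4.68 to 5.56 TPM in heart WT. These 3 fell in BAT (adjusted p = 0.0125, 0.0125 and 0.00583), and their tissue differences were -0.70, -0.72 and -0.48 (adjusted p = 0.0666, 0.0638 and 0.0599). Their signs were the same in both tissues. In thermogenesis, the glycerol kinase Gk read 72.6, 60.6, 58.5 and 58.9 TPM in BAT Mut and 74.0, 72.1, 102 and 132 TPM in BAT WT (tissue difference -0.54, adjusted p = 0.135), and the nuclear receptor Esrrg had a difference of -0.46 (adjusted p = 0.119). In the TCA list Idh2 and the kinase Pdk1 had differences of 0.44 and -0.47 (adjusted p = 0.106 and 0.118).

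In all, 45 lists were read, of which 38 had at least 5 genes tested. Their median tissue difference was above 0 in 32 of the 38 on TPM and in 21 of the 38 with median-ratio scaling. Genes that passed belonged to 3 lists: atrial markers (Myl7, Myl4, Nppa), small membrane proteins (Smim1) and Rab GTPases (Rab3a). Among insulin and IGF genes, Igfbp7 read 103 to 117 TPM in BAT Mut and 61.6 to 84.3 TPM in BAT WT, and 60.8 to 97.1 TPM in heart Mut and 82.0 to 89.7 TPM in heart WT (tissue difference 0.68, adjusted p = 0.0629). Red blood cell markers stood higher in Mut in both tissues, with 7 of 7 higher in each (medians 0.79 in BAT and 0.99 in heart) and a median tissue difference of -0.14. That median turned to 0.41 without heart Mut 4 and to 0.0042 without BAT WT 4, and was -0.58 without heart Mut 2. In heart Mut library 4 they summed to 26303 TPM. Heart Mut libraries 1 to 3 gave 3262 to 6742 TPM, and heart WT gave 3104 to 6427 TPM. The neutrophil and mast cell lists had no gene at 1 TPM in both tissues.

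**Figure D5:**
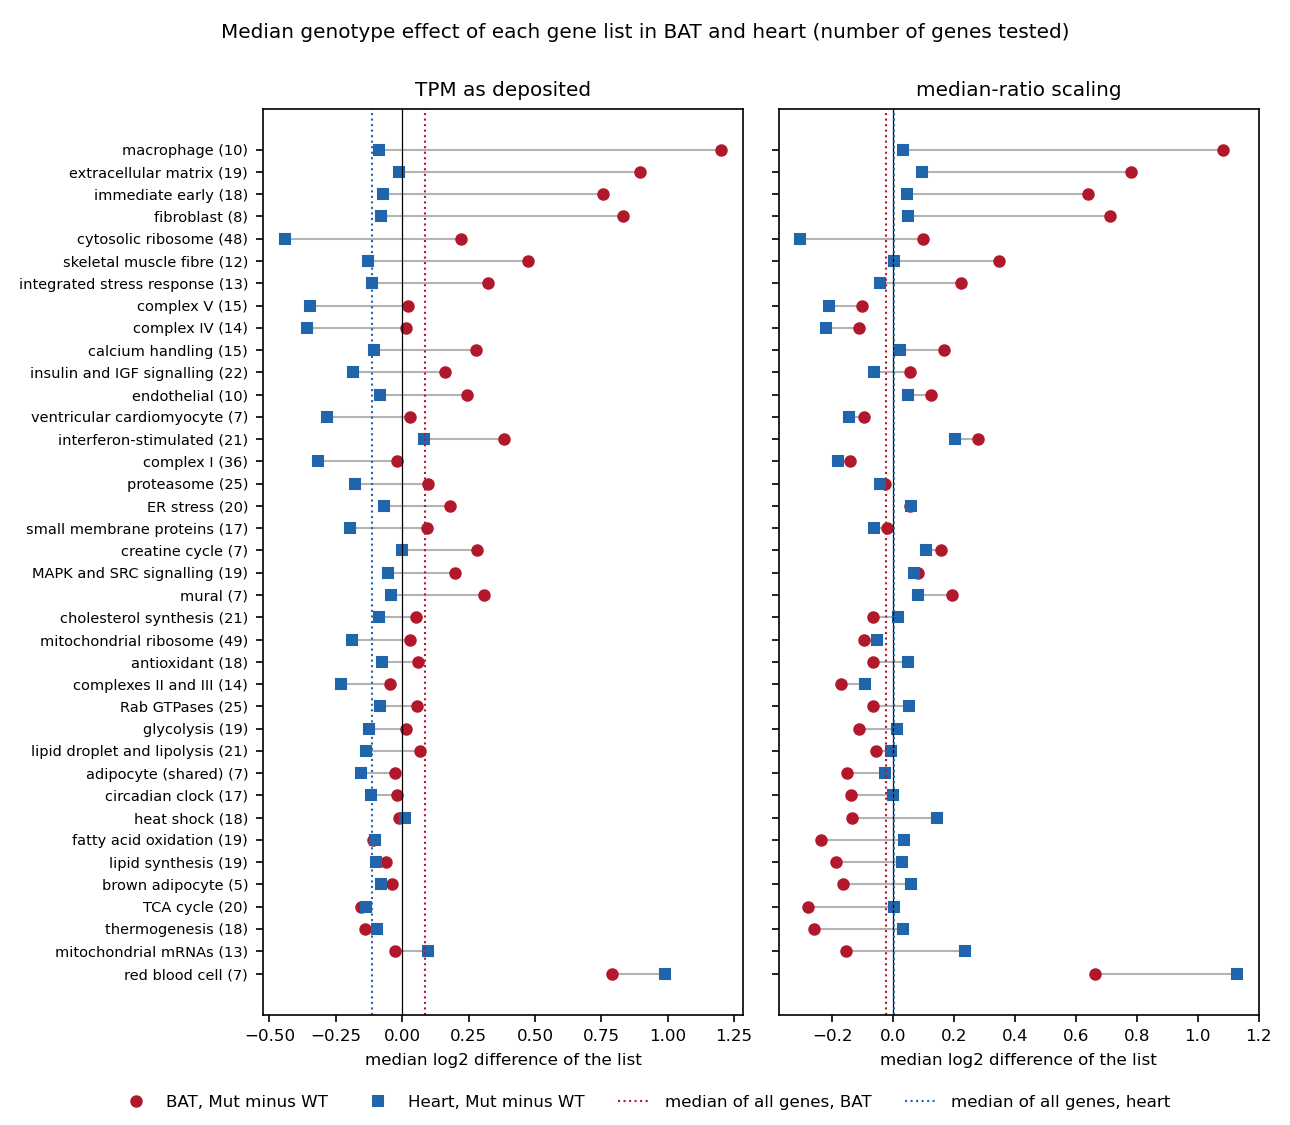
Median Mut minus WT log2 difference of each list with at least 5 genes tested, in BAT (circles) and heart (squares), on TPM as deposited (left) and with median-ratio scaling (right). Dotted lines are the medians over all genes. The macrophage, matrix, immediate early and fibroblast lists have BAT values far above 0 and heart values near 0, and the cytosolic ribosome list keeps BAT above 0 and heart below 0 in both panels.

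Tissue differences also varied with transcript length. For the 2234 genes with the shortest transcripts (under 1354 bases, weighted by TPM) the median was 0.33, and 14 of the 29 genes that passed lay there. For the 2234 with the longest transcripts it was 0.14, with 3 of the 29. Of the 48 ribosomal protein genes 46 were among the shortest 2234, and that set without symbols starting Rpl or Rps had a median of 0.33. The part of length in the ribosomal difference was not tested further.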

How the data were processed

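RNA sequencing libraries of BAT and heart were compared between Smim30 knockout (Mut) and WT mice, 4 libraries per group, with groups and numbers taken from the titles. The authors deposited 1 TPM value per transcript and library, from Salmon per the submitters' processing notes. For the Salmon version, transcriptome and build, the sources used here say nothing. Read totals cannot be had from TPM, so depth is unknown and precision was read from the spread between libraries. The 147493 transcripts were matched to GENCODE M21 on GRCm38 (136081 matched, 92.26%, leaving 0.451% to 0.752% of TPM per library unmatched) and summed to 51510 genes. The 16 libraries had 11480 to 12385 genes at 1 TPM or more.

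Genes averaging 1 TPM or more in each tissue were fitted on log2(TPM + 1), a pseudocount that makes the changes of low genes smaller, with limma 3.58.1 in R 4.3.3 (mean-variance trend), in 1 fit over 16 libraries. The p-values are two-sided and measure the spread between libraries, which the submitters describe as individual mice. They were adjusted by the Benjamini-Hochberg method over all genes tested. Single genes also had an exact permutation test, whose smallest possible p is 0.000408. It is exact where genotype has no effect in either tissue. It is not an exact test of equal effects where the tissues do have effects. The fit was tested on simulated data, with 50 altered genes at each of 4 sizes. Of those with a tissue difference of 0.5, 8 passed (16%), and of those with 1, 39 passed (78%). At differences of 2 and 4, 50 and 49 passed. Of the unaltered genes 8 passed (0.0729%). The simulated noise was independent for each gene, so this test does not cover libraries that shift many genes together. Named genes are Smim30, Ide, Btaf1, Rab4a and Ucp1, up to 12 opposed genes that passed in each direction (non-overlapping ones first, then the largest), those that passed with the same sign, and up to 3 members of a list that passed, or up to 2 by smallest p in lists described. Not every gene this rule names is reported here. The genes and lists were chosen with earlier results of these data known. Lists are described by counts and medians. Alternatives were the pseudocount (0.1), the filter (none, 5 TPM), scaling by median ratios, scaling after dropping mitochondrial genes and the 10 next most abundant, no trend, array weights, blocks by number, a fit over 32 libraries, an adjusted p under 0.1 and leaving out libraries. Figures were made with matplotlib 3.10.9. Promoter sequences come from RefSeq (GRCm38.p6).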

Additional observations from a re-analysis of the deposited data

Results flagged for a closer look

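In 18 of 276 combinations of a named gene and a group (69 genes), the highest or lowest of the 4 libraries stood farther from its nearest neighbour than Dixon's critical share of the group's range allows. Chance gives about 5% of groups. In heart Mut library 2, 4 genes stood apart: mt-Atp8 was high at 113000 TPM, while Ndufa2 (160.0 TPM), Cox7a2 (219.8 TPM) and Atp5j (521.7 TPM) were low. In BAT WT library 3, Plscr2 (2.638 TPM), Gng2 (5.191 TPM) and Tle6 (1.498 TPM) were high. In heart Mut library 1, Tfpi was high (18.82 TPM), and Chac1 (1.811 TPM) and Mdh1 (254.5 TPM) were low. In heart Mut library 3, Myl4 (17.07 TPM) and Myl7 (20.63 TPM) were high. The rest were Btaf1 low (3.819 TPM) and Gk high (72.62 TPM) in BAT Mut library 1, Rbm3 low (87.94 TPM) in BAT Mut library 2, Ccn1 high (26.51 TPM) in heart Mut library 4, and Gng2 (7.286 TPM) and Jun (19.32 TPM) high in heart WT library 4.

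For 27 genes with established names, the genotype effects in BAT and heart differed by the test of the difference (limma, adjusted p under 0.05). Their tissue differences were 5.907 for Myl7, 5.667 for Myl4, 4.176 for Nppa, 1.63 for Gng2, 1.357 for Olfm1, 1.309 for Smim1, 1.201 for Hmgn3, 1.19 for Bex3 and 1.09 for Tceal8. They were 1.06 for Tle6, 1.057 for Rtn2, 0.996 for Plscr2, 0.9912 for Gpx7, 0.988 for Ccl11, 0.9631 for Atp6v0e2, 0.9034 for Galnt15, 0.8714 for Mmp2, 0.8521 for Rbm3 and 0.8352 for Tpt1. They were 0.811 for Cpne2, 0.8031 for Tfpi, 0.7889 for Rab3a, 0.758 for Il11ra1, 0.7435 for Rhoj, 0.7352 for Tmpo, 0.7253 for Dpysl2 and 0.7172 for Myom1.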

How the results depend on the processing

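The number of genes that passed depended on most settings. For the tissue difference (29 genes, 28 opposed) it was 10 (10 opposed) with a pseudocount of 0.1, 11 (10) with no filter, 18 (17) with a 5 TPM filter, 286 (272) with median-ratio scaling, 149 (142) after rescaling, 11 (11) with no trend, 1665 (1455) with array weights, 876 (850) in a fit over 32 libraries and 985 (949) at an adjusted p under 0.1. Leaving out 1 library gave 3 to 1086 (3 to 999 opposed). Of settings added after the data were seen, leaving out BAT WT 1 and 2 gave 4 (4), these and heart Mut 2 gave 2 (2), and median-ratio scaling gave 95 (91) without heart Mut 2 and 268 (247) without BAT WT 1 and 2.

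In BAT (236 genes) the counts were 87 with no filter, 88 with a 5 TPM filter, 719 with median-ratio scaling, 458 after rescaling, 1712 with array weights, 644 in the fit over 32 libraries, 692 at an adjusted p under 0.1, and 4 to 988 with 1 library left out. With the added settings they were 22, 31 and, with median-ratio scaling without heart Mut 2, 820. In heart (10 genes) they were 39 with no filter, 19 with median-ratio scaling, 19 after rescaling, 144 with array weights, 50 in the fit over 32 libraries, 19 at an adjusted p under 0.1, and 3 to 41 with 1 library left out. With the added settings they were 6 without BAT WT 1 and 2 and heart Mut 2, and with median-ratio scaling 5 without heart Mut 2 and 18 without BAT WT 1 and 2. The cause was not tested.

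The labels number the libraries 1 to 4 in every group and do not say that a number marks a mouse. Libraries of the same genotype and number correlated across tissues at -0.07 to 0.17, with 5 of 8 over 0.1. Libraries of different groups and other numbers correlated at -0.29 to 0.27, with 14 of 72 over 0.1. Of 16 libraries, 9 correlated best with their own number. The fit with a block for the mouse estimated a correlation of 0.16 within a block. Whether a number marks a mouse was not settled, and the main fit did not take the numbers as pairs. With a replicate block for the mouse (genotype and number) 737 genes passed (712 opposed), with 29 of the 29 among them. With a block for the number alone 5 passed (5 opposed), 3 of the 29 among them (Galnt15, Tle6 and Gng2), and 9 passed in BAT.

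The tissue difference of Smim30 passed with array weights (0.61, adjusted p = 0.0143), with the mouse block (0.60, 0.0412), over 32 libraries (0.60, 0.0339) and without BAT WT 3 (0.66, 0.0354), and was 0.48 to 0.68 with 1 library left out (limma adjusted p 0.0143 to 0.2535 over all settings). It was smaller with median-ratio scaling (0.35), after rescaling (0.38), without BAT WT 1 and 2 (0.43), without these and heart Mut 2 (0.30), and with median-ratio scaling without heart Mut 2 (0.295) or without BAT WT 1 and 2 (0.27). That of Ucp1 changed sign without passing, to -0.21 with median-ratio scaling, -0.19 after rescaling and -0.056 without BAT WT 1 (-0.056 to 0.125 with 1 library left out). It was -0.16 without BAT WT 1 and 2, -0.18 without these and heart Mut 2, and with median-ratio scaling -0.16 without heart Mut 2 and -0.32 without BAT WT 1 and 2. No other named gene changed sign. TPM keeps no read totals, so the limit set by depth is unknown, and genes near 1 TPM have changes made smaller by the pseudocount.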
